A study of Mus musculus with 8 samples.

Results

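The genes described here are 40 interferon-stimulated genes, followed through mouse left ventricles after cardiac ischemia-reperfusion. The list was given by name and was chosen with earlier results of these data known. All 40 were found among the 38293 gene identifiers of the deposited counts, and all 40 had enough counts to be tested, as did 13972 genes in all. The smallest count of any of the 40 in any library was 49.

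The 8 libraries hold polyadenylated RNA from left ventricles of C57BL/6J mice. Every mouse in both groups had ischemia-reperfusion by tying and releasing the left anterior descending coronary artery, then 2 intramyocardial injections of 10 µl of UPy-PEG hydrogel, a self-assembling polymer gel that can hold a drug in place. In the hydrogel group (4 libraries) the gel carried no drug, and in the antimiR-195 group (4 libraries) it carried antimiR-195, an oligonucleotide that binds and blocks the microRNA miR-195. Hearts were taken on day 3, so the comparison sets gel with antimiR-195 against gel alone in injured hearts. Neither group had a control oligonucleotide, so an effect of blocking miR-195 cannot be told apart from a response to the oligonucleotide itself. No uninjured or gel-free group was analysed here, so the levels of the 40 genes have no resting reference. The labels give no age and do not state that each library is a separate animal, so a p-value here speaks of variation among libraries, which may be technical.

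Type I interferons are secreted proteins that bind a receptor on the cell surface, and the kinases JAK1 and TYK2 then phosphorylate STAT proteins, STAT2 among them. STAT2 joins IRF9 in ISGF3, a complex that binds the interferon-stimulated response element (ISRE) in promoters and switches on genes that sense, degrade or trap viral nucleic acid. After myocardial infarction, macrophages that take up DNA from dying cells are known to make type I interferon, and interferon-stimulated genes are then seen in immune cells of the injured wall.

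Total gene counts ran from 16872968 to 22751753 per library. The 8 cardiomyocyte markers summed to between 59680 and 73560 CPM in each library (CPM, gene counts scaled to a common library size), as a ventricle label implies. AntimiR-195 replicate 2 stood apart from the other libraries in 2 ways that touch the results below. Its neutrophil markers summed to 71.8 CPM, against 25.4 to 36.2 in the other 7 libraries, with Ly6g at 0 counts everywhere, and short genes lay higher in it than in the other antimiR-195 libraries. The neutrophil sum rested on S100a8 (20.5 CPM) and S100a9 (31.9), themselves short genes of at most 522 bases, while the longer Csf3r had 13.9 CPM there and 7.85 to 14.7 elsewhere. The main counts and medians over the 40 genes are therefore given with and without it.

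None of the 40 genes passed the test between the groups. By edgeR's quasi-likelihood test with Benjamini-Hochberg adjustment over all genes, the adjusted p was 0.9999 for each of them, and 0% of all genes tested passed the threshold of 0.05. At an unadjusted p below 0.05 there were 2 of the 40, Ifi44 and Mx1, both higher with antimiR-195, beside 1.27% of all genes in either direction and 0.83% higher. DESeq2 also called none of the 40 and no other gene, with 2 of the 40 below an unadjusted 0.05 beside 193 of 13972 genes. The 95% confidence interval stayed under a 2-fold rise for 35 of the 40 and covered no difference for 38.

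The differences, though small, leaned one way. In 37 of the 40 genes the log2 fold change of antimiR-195 over hydrogel was above 0, beside 52.4% of all genes tested, and the median was 0.22 (a fold of 1.16) beside 0.01 over all genes. Values ran from -0.08 for Igtp to 0.60 for Ifi44. Without antimiR-195 replicate 2 the median was 0.10 and 32 of the 40 were above 0, beside 48.75% of all genes tested. None of the 40 then had an unadjusted p below 0.05 by edgeR, beside 260 of 14107 genes tested. The members share libraries and regulation, so they are no replicates of one another, and the count of 37 carries no test.

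The mean log2 CPM of the 40 genes was 3.92, 3.93, 4.00 and 4.18 in hydrogel replicates 1 to 4 and 4.05, 4.48, 4.15 and 4.17 in antimiR-195 replicates 1 to 4. The groups overlapped, since hydrogel replicate 4 lay above antimiR-195 replicates 1, 3 and 4. As group means this was 4.01 ± 0.12 and 4.21 ± 0.19 (SD, n = 4 each), a difference of 0.20, or 0.11 without antimiR-195 replicate 2. Hydrogel replicate 4 was the high library of its group, with 35 of the 40 genes above the hydrogel mean, and antimiR-195 replicate 2 was the high library of the other group, with 36 of 40. Of all genes tested, 6968 and 6919 of 13972 lay above the hydrogel mean in those libraries.

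The highest of the 8 libraries was antimiR-195 replicate 2 for 23 of the 40 genes, beside 30.8% of all genes tested. AntimiR-195 replicates 3 and 4 were highest for 6 genes each, and a hydrogel library was highest for 5, which were Gbp2, Irgm1, Parp14, Gbp3 and Sp100. For none of the 40 was the highest value in antimiR-195 replicate 1. Over all 13972 genes tested, antimiR-195 replicates 1, 3 and 4 were highest for 968, 2722 and 1016. Hydrogel replicates 1 to 4 were highest for 795, 1331, 1601 and 1232 of them. Herc6 was the one gene whose 4 antimiR-195 libraries all lay above the 4 hydrogel libraries, where 0.53% of all genes did the same. Without hydrogel replicate 4 that count was 7, with Irf7, Mx1, Oasl2, Parp9, Stat2 and Zbp1 beside Herc6, and 1.8% of all genes tested were then apart. Without antimiR-195 replicate 1 it was 3, beside 0.985%, and without antimiR-195 replicate 2 it was 1, beside 1.31%.

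**Figure D1:**
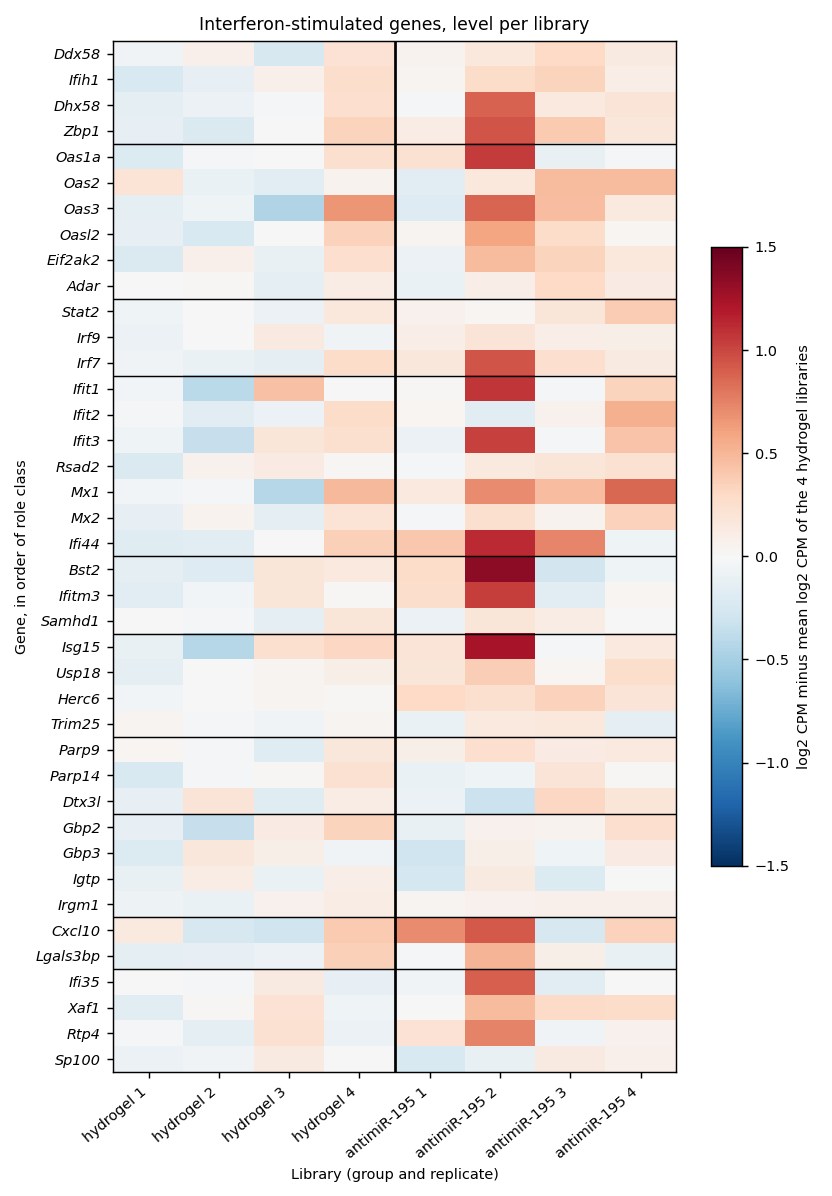
Level of each of the 40 genes (vertical axis, in order of role class, black lines between classes) in each of the 8 libraries (horizontal axis), as log2 CPM minus the mean log2 CPM of the 4 hydrogel libraries, red above and blue below that mean. AntimiR-195 replicate 2 is the reddest column, with 36 of 40 genes above the hydrogel mean, and hydrogel replicate 4 has 35 of 40.

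Per length of transcript, the most abundant of the 40 was Ifitm3, at a level of 170.0 ± 14.0 RPKM in the hydrogel group and 225 ± 95.3 in the antimiR-195 group (SD, n = 4). RPKM are the deposited values, scaled for gene length and library size. Bst2 followed at 34.4 ± 4.73 RPKM in the hydrogel group and Lgals3bp at 25.9 ± 5.36, whose SD ranges overlap, while Ifitm3 stood far above both. Isg15 at 13.0 ± 3.06 and Ifi35 at 12.3 ± 0.582 RPKM did not differ beyond their spread. At the low end were Mx1 at 1.15 ± 0.340, Ifi44 at 0.771 ± 0.160 and Oas3 at 0.664 ± 0.258 RPKM. Herc6 at 1.16 ± 0.0378 and Mx2 at 1.17 ± 0.166 did not differ from Mx1 beyond their spread.

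The promoters of 6 genes that hold an ISRE word are shown, because ISGF3 is known to act through this element. They were taken in order of p from the genes whose value in every library is given, and let a reader see how the word differs. The log2 fold changes of the 6 genes ran from 0.22 (Eif2ak2) to 0.47 (Cxcl10). Without antimiR-195 replicate 2 they ran from -0.02 (Bst2) to 0.29 (Cxcl10). The windows run from 250 bases before to 50 bases after the RefSeq start of the gene, build GRCm38.p6, 5′ to 3′ on the gene's strand. Capitals mark each match to the ISRE word, a GAAA, any 2 bases and a second GAAA, searched on both strands, so that a match on the opposite strand appears as TTTC, 2 bases and TTTC. Overlapping matches run together.
Cxcl10, chr5:92348840-92349139, minus strand: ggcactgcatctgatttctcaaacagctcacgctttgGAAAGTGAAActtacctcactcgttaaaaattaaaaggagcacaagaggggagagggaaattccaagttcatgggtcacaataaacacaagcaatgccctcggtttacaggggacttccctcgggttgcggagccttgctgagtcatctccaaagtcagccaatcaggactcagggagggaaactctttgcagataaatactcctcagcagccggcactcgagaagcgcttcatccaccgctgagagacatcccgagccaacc
Isg15, chr4:156200769-156201068, minus strand: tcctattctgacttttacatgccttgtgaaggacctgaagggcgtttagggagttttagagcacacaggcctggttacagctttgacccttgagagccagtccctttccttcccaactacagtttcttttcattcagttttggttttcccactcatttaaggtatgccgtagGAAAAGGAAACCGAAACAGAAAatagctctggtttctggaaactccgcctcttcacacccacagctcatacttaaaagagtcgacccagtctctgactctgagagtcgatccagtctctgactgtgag
Ifit3, chr19:34583279-34583578, plus strand: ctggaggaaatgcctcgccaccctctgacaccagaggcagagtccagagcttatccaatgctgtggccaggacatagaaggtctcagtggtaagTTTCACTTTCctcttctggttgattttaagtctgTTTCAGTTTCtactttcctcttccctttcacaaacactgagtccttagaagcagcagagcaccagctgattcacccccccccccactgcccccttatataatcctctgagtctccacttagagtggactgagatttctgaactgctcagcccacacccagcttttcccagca
Ifitm3, chr7:141010695-141010994, minus strand: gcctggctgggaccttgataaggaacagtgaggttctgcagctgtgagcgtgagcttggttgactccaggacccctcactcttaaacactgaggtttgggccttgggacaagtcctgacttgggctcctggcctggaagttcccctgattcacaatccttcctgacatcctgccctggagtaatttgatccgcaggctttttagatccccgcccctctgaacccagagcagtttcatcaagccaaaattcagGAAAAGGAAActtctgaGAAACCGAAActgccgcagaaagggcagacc
Bst2, chr8:71537423-71537722, minus strand: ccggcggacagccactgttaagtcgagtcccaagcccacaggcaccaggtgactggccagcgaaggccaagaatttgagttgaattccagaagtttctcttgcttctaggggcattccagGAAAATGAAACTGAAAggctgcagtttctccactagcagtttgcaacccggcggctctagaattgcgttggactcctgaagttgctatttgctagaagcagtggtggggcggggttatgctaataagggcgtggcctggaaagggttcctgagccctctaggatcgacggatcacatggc
Eif2ak2, chr17:78882523-78882822, minus strand: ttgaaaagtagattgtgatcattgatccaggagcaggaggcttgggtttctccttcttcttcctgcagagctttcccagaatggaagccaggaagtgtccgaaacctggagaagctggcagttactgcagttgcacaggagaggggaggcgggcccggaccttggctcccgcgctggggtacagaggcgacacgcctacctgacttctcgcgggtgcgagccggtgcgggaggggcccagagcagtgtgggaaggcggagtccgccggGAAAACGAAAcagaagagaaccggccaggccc

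RefSeq windows were found for 31 of the 40 genes. The ISRE word stood in 17 of the 31 (54.84%), beside 3.874% of the tested genes with a window and 3.443% of all RefSeq windows of that length. The word TTCNNNGAA of the gamma-activated sequence stood in 9 of the 31 (29.03%) beside 8.25% of the tested genes with a window. Isg15 held 3 ISRE words that overlap in 1 run, Bst2 and Ifitm3 held 2 each that overlap or sit close together, and Ifit3 held 2 apart on the opposite strand. A word in a window is a description of its letters and not a bound site.

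Because antimiR-195 blocks miR-195, matches to its seed are shown for the genes with the smallest p that have one. The mature miR-195a-5p (chr11:70235062-70235082, plus strand, RefSeq, GRCm38.p6) has its seed, bases 2 to 8, in capitals, and in the sites, cut from the longest annotated 3′ UTR of each gene (GENCODE M21 on GRCm38), capitals mark the letters that pair with bases 2 to 8, or with bases 2 to 7 followed by an A.
miR-195a-5p: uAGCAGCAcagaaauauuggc
Mx1: atgatcctttaGCTGCTAaccttatgtca
Herc6: aatgacatataTGCTGCTgtgacaatcac
Cxcl10: tggtcacatcaGCTGCTActcctcctgca
Ifit3: gtgctgtggagTGCTGCTtatggggagaa
Stat2: atgtgaagctcTGCTGCTctaggccatgc
Oas1a: tcaggggcattTGCTGCTctgctgcaggc

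A seed match stood in the 3′ UTR of 9 of the 40 genes (22.5%), beside 3667 of the 12866 tested genes with a 3′ UTR (28.5%). The other 3 were Rsad2, Trim25 and Parp14. The median log2 fold change was 0.27 for the 9 genes with a match and 0.21 for the 31 without, while over the tested genes it was -0.00 with and 0.01 without.

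The ligands of the pathway were at or near 0 counts. Of 15 interferon genes listed, 14 were in the files and 0 had enough counts to be tested. Ifnb1, interferon beta, and every interferon alpha gene found had 0 counts in all 8 libraries, where 3 counts would be 0.132 to 0.178 CPM. Ifng, interferon gamma, had 6 counts in all, spread over 4 libraries, with 2 in each of hydrogel replicates 2 and 4 and 1 in each of antimiR-195 replicates 2 and 4. Uniquely mapped ligand RNA was thus not detectable above that level in either group at this depth, a limit that covers counting error only. Multi-mapped reads were counted for no gene, so any reads shared among alike interferon alpha genes would be missed.

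The receptors were present and did not pass the test. Ifnar1, a chain of the type I receptor, had 39.4, 37.6, 30.3 and 44.4 CPM in hydrogel replicates 1 to 4 and 39.6, 35.5, 42.5 and 39.0 in antimiR-195 replicates 1 to 4, a log2 fold change of 0.05 ± 0.13 (SE). Ifnar2, its partner, differed by 0.03 ± 0.12, and was lower by a log2 of -0.08 without antimiR-195 replicate 2. Il10rb, a chain shared by the interferon lambda and interleukin 10 receptors, had 104 to 132 CPM in the hydrogel group and 77.1 to 109 in the antimiR-195 group, a log2 fold change of -0.28 ± 0.13 with an unadjusted p of 0.0603 by edgeR. The lambda chain Ifnlr1 at -0.23 ± 0.21 and the interferon gamma receptor chain Ifngr2 at -0.10 ± 0.14 also lay below 0. In all, 2 of the 6 receptor chains tested lay above 0.

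The kinases, STATs and IRFs tested outside the 40 were split, with 5 of 10 above 0 and a median log2 fold change of -0.02. Irf1, an early factor induced by interferon gamma, differed by -0.09 ± 0.13, Irf2, its competitor on promoters, by -0.17 ± 0.13, and Irf5, a factor of myeloid cells, by -0.21 ± 0.15.

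The 3 transcription factors among the 40 lay higher by small amounts. Irf7, which amplifies interferon production and is itself strongly induced, had 23.3, 22.6, 22.0 and 29.2 CPM in hydrogel replicates 1 to 4 and 27.1, 46.3, 28.8 and 26.5 in antimiR-195 replicates 1 to 4. Hydrogel replicate 4 overlapped the antimiR-195 libraries, and antimiR-195 replicate 2 stood above all the rest. The log2 fold change was 0.41 ± 0.19 with an unadjusted p of 0.055 by edgeR, and 0.17 without antimiR-195 replicate 2. Stat2, a part of ISGF3, had 24.5, 25.5, 24.0 and 28.4 CPM against 26.7, 26.1, 28.9 and 33.3, a log2 fold change of 0.17 ± 0.12, and 0.20 without antimiR-195 replicate 2. In Stat2 only hydrogel replicate 4 reached into the antimiR-195 range. Irf9, the DNA-binding part of ISGF3, had 22.1, 23.5, 25.7 and 22.6 CPM against 25, 26.7, 25.1 and 24.9, a log2 fold change of 0.12 ± 0.10. Its hydrogel replicate 3 lay within the antimiR-195 range. Irf9 shares exon bases with Rnf31 on the same strand, so its reads are uncertain.

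All 4 sensors of viral nucleic acid lay above 0, with a median of 0.26 (0.14 when antimiR-195 replicate 2 is left out), and none passed. Zbp1, a sensor of Z-form nucleic acid that can start necroptosis, had 6.4, 6.01, 6.97 and 8.82 CPM in the hydrogel libraries and 7.51, 13.5, 9.16 and 7.86 in the antimiR-195 libraries. The groups overlapped at hydrogel replicate 4, and the highest library was antimiR-195 replicate 2. Its log2 fold change was 0.43 ± 0.21 with an unadjusted p of 0.0654 by edgeR, and 0.20 without that library. Dhx58, the sensor LGP2, had 5.71, 5.97, 6.19 and 7.55 CPM against 6.22, 11.7, 7 and 7.23, a log2 fold change of 0.34 ± 0.21 that was 0.09 without antimiR-195 replicate 2. Ddx58, the RNA sensor RIG-I, had 22.0, 24.2, 19.4 and 26.5 CPM against 23.8, 25.6, 28.1 and 25.1, a log2 fold change of 0.16 ± 0.12. Its groups overlapped and the value was 0.15 without antimiR-195 replicate 2. Ifih1, the RNA sensor MDA5, differed by 0.18 ± 0.14.

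The adaptors and sensors outside the 40 did not share that lean, with 5 of 10 above 0 and a median of 0.00. Mavs, the mitochondrial adaptor of RIG-I and MDA5, had 62.7 to 73.5 CPM in the hydrogel group and 44.6 to 64.8 in the antimiR-195 group, a log2 fold change of -0.27 ± 0.14 with an unadjusted p of 0.0717 by edgeR. The DNA sensor gene Mb21d1, which encodes cGAS, had 2.91 to 3.42 CPM against 3.17 to 4.65, a log2 fold change of 0.30 ± 0.18. Tmem173, the adaptor STING that acts after cGAS, differed by 0.13 ± 0.16, and by 0.01 without antimiR-195 replicate 2.

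The 6 enzymes that act on double-stranded RNA all lay above 0, with a median of 0.24, or 0.10 without antimiR-195 replicate 2. Oas2, one of the synthetases whose product activates RNase L, had 16.7, 13.6, 12.9 and 15.0 CPM in the hydrogel libraries and 12.8, 16.2, 20.1 and 20.2 in the antimiR-195 libraries. The high libraries were antimiR-195 replicates 3 and 4, while replicate 1 lay below every hydrogel library. Its log2 fold change was 0.25 ± 0.16, and 0.27 without antimiR-195 replicate 2. Eif2ak2, the kinase PKR that halts translation, had 14.2, 17.4, 15.2 and 19.5 CPM against 15.5, 22.8, 20.8 and 18.3, a log2 fold change of 0.22 ± 0.15 (0.13 without antimiR-195 replicate 2), with overlapping groups. Oasl2, a relative of the synthetases, had 21.5, 20.1, 23.4 and 29.9 CPM against 24.1, 35.2, 28.4 and 23.8, a log2 fold change of 0.24 ± 0.17 (0.09 without antimiR-195 replicate 2), and hydrogel replicate 4 was the second highest library. Oas1a and Oas3 differed by 0.36 ± 0.25 and 0.32 ± 0.29, and by 0.02 and 0.10 without antimiR-195 replicate 2. Adar, which edits adenosine in double-stranded RNA, differed by 0.11 ± 0.12. Oas1a has a close copy, Oas1g, and any reads that map to both were counted for neither. Adar shares 1365 exon bases with Chrnb2 on the opposite strand.

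The IFIT, Mx and other cytosolic antiviral genes held the 2 largest fold changes, and all 7 lay above 0 with a median of 0.39, or 0.12 without antimiR-195 replicate 2. Ifi44, an interferon-induced cytosolic protein, had 4.12, 4.21, 4.66 and 5.99 CPM in hydrogel replicates 1 to 4 and 6.22, 10.2, 7.78 and 4.5 in antimiR-195 replicates 1 to 4. AntimiR-195 replicates 1 to 3 lay above every hydrogel library and replicate 4 lay among them. The log2 fold change was 0.60 ± 0.25, a fold of 1.51 with a 95% interval of 1.04 to 2.21, and the unadjusted p by edgeR was 0.0338. It was 0.37 without antimiR-195 replicate 2.

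Mx1, a dynamin-like GTPase that blocks viral ribonucleoproteins, had 3.97, 4.06, 3.05 and 5.72 CPM in the hydrogel libraries and 4.54, 6.67, 5.63 and 7.46 in the antimiR-195 libraries. Hydrogel replicate 4 lay above antimiR-195 replicates 1 and 3, and the other 3 hydrogel libraries lay below the whole antimiR-195 group. Its log2 fold change was 0.54 ± 0.23 with an unadjusted p of 0.037 by edgeR. It was 0.48 without antimiR-195 replicate 2, and the highest library was antimiR-195 replicate 4. Common inbred mouse strains, C57BL/6J among them, are known to carry a defective Mx1 gene, so its RNA is read here as an induced transcript only.

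Ifit3, which with its relatives binds viral RNA, had 13.8, 11.3, 16.3 and 17.0 CPM in the hydrogel libraries and 13.5, 29.4, 14.1 and 19.4 in the antimiR-195 libraries. AntimiR-195 replicates 1 and 3 lay within the hydrogel range. Its log2 fold change of 0.39 ± 0.24 was 0.09 without antimiR-195 replicate 2. Any reads that map to both Ifit3 and the near copy Ifit3b were counted for neither. Ifit1 differed by 0.39 ± 0.26, and by 0.07 without antimiR-195 replicate 2. Ifit2 at 0.13 ± 0.17, Rsad2 (viperin, which makes a chain-terminating nucleotide) at 0.13 ± 0.11 and Mx2 at 0.15 ± 0.18 had small values that lay above 0 without it too, though Ifit2 was at -0.04 without antimiR-195 replicate 4.

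**Figure D2:**
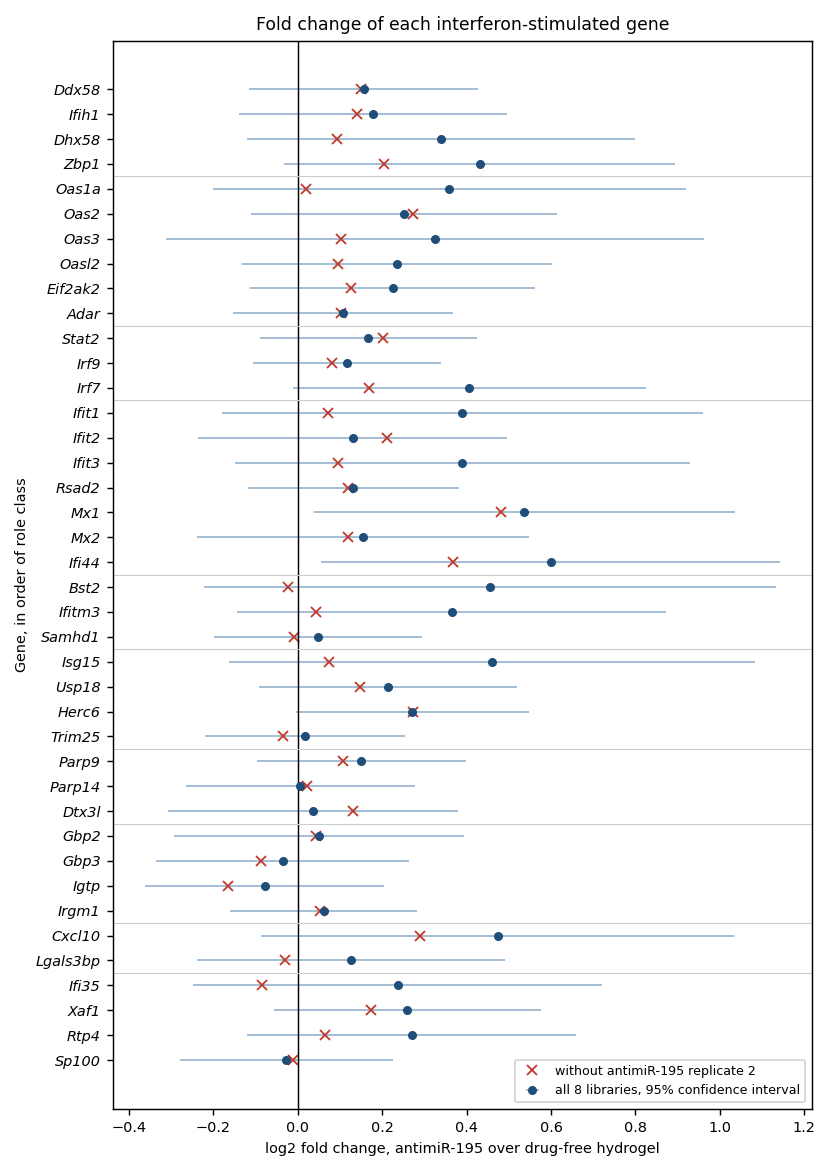
Log2 fold change of antimiR-195 over drug-free hydrogel (horizontal axis) for each of the 40 genes (vertical axis, in order of role class). Blue points with 95% confidence intervals are from all 8 libraries and red crosses leave out antimiR-195 replicate 2. Only the intervals of Ifi44 and Mx1 lie wholly above 0, and the crosses of Bst2, Isg15, Ifitm3 and Ifit1 fall close to 0.

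The 3 restriction factors of membranes and nucleotides rested on antimiR-195 replicate 2, their class median being 0.37 with that library and -0.01 without it. Bst2, tetherin, which holds budding viruses at the cell surface, had 23.9, 23.1, 29.96 and 29.3 CPM in the hydrogel libraries and 32.0, 66.7, 21.7 and 25.2 in the antimiR-195 libraries. Apart from replicate 2, with its 66.7 CPM, the antimiR-195 libraries ran from below to just above the hydrogel range. The log2 fold change was 0.46 ± 0.31, and -0.02 without that library. Ifitm3, which blocks viral fusion in endosomes, had 104, 113, 131 and 118 CPM against 140, 238, 104 and 119, a log2 fold change of 0.37 ± 0.23 that was 0.04 without it. Samhd1, which breaks down the nucleotides needed for reverse transcription, had 56.3, 56.1, 51.1 and 64.3 CPM against 53.6, 64.6, 61.1 and 56.3, a log2 fold change of 0.05 ± 0.11, with groups that overlapped throughout.

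Herc6, in mice the main ligase that attaches ISG15 to proteins, was the one gene of the 40 whose groups lay apart. It had 5.98, 6.11, 6.32 and 6.22 CPM in hydrogel replicates 1 to 4 and 7.56, 7.28, 7.84 and 7.06 in antimiR-195 replicates 1 to 4. The lowest antimiR-195 library lay above the highest hydrogel library, and antimiR-195 replicate 2 was not the highest. The group means were 6.16 ± 0.149 and 7.43 ± 0.339 CPM (SD, n = 4). The log2 fold change was 0.27 ± 0.12, a fold of 1.21 with a 95% interval of 0.997 to 1.46, and the unadjusted p by edgeR was 0.0529. Leaving out any 1 library kept it between 0.24 and 0.29. Herc6 was singled out after its values were seen, and 74 of 13972 genes tested were apart in the same direction.

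The other genes of the ISG15 and ubiquitin system overlapped between groups. Isg15, the ubiquitin-like protein itself, had 8.94, 7.19, 11.4 and 12 CPM in the hydrogel libraries and 11.1, 22.9, 9.58 and 10.8 in the antimiR-195 libraries. AntimiR-195 replicates 1, 3 and 4 lay within the hydrogel range, and the log2 fold change of 0.46 ± 0.28 was 0.07 without replicate 2. Usp18, the protease that removes ISG15 and restrains the receptor, had 5.61, 6.21, 6.37 and 6.55 CPM against 7, 7.99, 6.28 and 7.40, a log2 fold change of 0.21 ± 0.14. Only antimiR-195 replicate 3 kept Usp18 from being apart. Trim25, the ligase that activates RIG-I, differed by 0.02 ± 0.11.

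The ADP-ribosyltransferase genes and Dtx3l were close to 0, with a median of 0.04, or 0.11 without antimiR-195 replicate 2. Parp9, which pairs with DTX3L, had 21.3, 20.4, 18.4 and 23.5 CPM in the hydrogel libraries and 22.1, 24.8, 22.6 and 23.1 in the antimiR-195 libraries, a log2 fold change of 0.15 ± 0.11. Hydrogel replicate 4 alone reached the antimiR-195 range. Dtx3l, the ligase partner, had 21.4, 26.6, 20.6 and 25.2 CPM against 22.0, 18.7, 29.0 and 26.5, a log2 fold change of 0.04 ± 0.16, and its lowest library was antimiR-195 replicate 2. The pair share 458 exon bases on opposite strands, and the strand setting of the counting is not given in the sources used here. Parp14, an ADP-ribosyltransferase of macrophages, had 29.0, 33.5, 34.4 and 39.7 CPM against 31.7, 32.5, 38.7 and 34.3, a log2 fold change of 0.01 ± 0.12.

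The 4 interferon-inducible GTPases, which attack the vacuoles of intracellular pathogens and respond strongly to interferon gamma, did not lean either way. They had 2 of 4 values above 0 and a median of 0.01, beside 35 of 36 and a median of 0.24 for the remaining genes, a difference between lists that was not tested. Without antimiR-195 replicate 2 the GTPases had a median of -0.02 and the remaining genes one of 0.11, with 30 of 36 above 0. Igtp had 16.3, 19.1, 16.5 and 19.0 CPM in the hydrogel libraries and 14.8, 19.5, 15.3 and 17.6 in the antimiR-195 libraries, a log2 fold change of -0.08 ± 0.13. Irgm1 had 22.5, 22.2, 24.8 and 25.7 CPM against 24.4, 24.8, 25 and 25.1, a log2 fold change of 0.06 ± 0.10. The 4 antimiR-195 values of Irgm1 lay inside the hydrogel range. Gbp2 had 19.5, 16.8, 23.2 and 26.8 CPM against 19.7, 22.2, 22.0 and 25.4, a log2 fold change of 0.05 ± 0.16, and Gbp3 differed by -0.04 ± 0.14. Each of the 4 genes had a promoter window with the ISRE word (4 of their 5 windows), as did Isg15 and Bst2. Igtp shares 162 exon bases with Irgm2 on the same strand.

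Of the secreted proteins, Cxcl10, a chemokine that attracts activated T cells, had 6.19, 4.74, 4.57 and 7.33 CPM in the hydrogel libraries and 9.13, 10.6, 4.73 and 7.12 in the antimiR-195 libraries. AntimiR-195 replicates 1 and 2 lay above every hydrogel library and replicate 3 lay near the lowest of them. Its log2 fold change was 0.47 ± 0.25 with an unadjusted p of 0.0892 by edgeR, and 0.29 without antimiR-195 replicate 2. Lgals3bp, a secreted glycoprotein that binds galectin-3, had 66.6, 67.2, 68.8 and 93.9 CPM against 72.7, 105, 78.2 and 68.1, a log2 fold change of 0.13 ± 0.17 that was -0.03 without that library. In the hydrogel group replicate 4 was the one high library for Lgals3bp.

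The last 4 genes are induced proteins of other roles. Xaf1, a proapoptotic binding partner of XIAP, had 9.10, 10.4, 12 and 9.82 CPM in the hydrogel libraries and 10.2, 14.2, 12.6 and 12.4 in the antimiR-195 libraries, a log2 fold change of 0.26 ± 0.14 with overlap at antimiR-195 replicate 1. Rtp4, a chaperone of membrane receptors that also acts against viruses, had 17.2, 15.8, 20.4 and 16.4 CPM against 20.2, 28.9, 16.8 and 18.1, a log2 fold change of 0.27 ± 0.18 that was 0.06 without antimiR-195 replicate 2. Ifi35 had 21.6, 21.2, 23.7 and 19.8 CPM against 20.7, 40.1, 19.3 and 21.4, and its log2 fold change of 0.24 ± 0.22 was -0.08 without antimiR-195 replicate 2. Sp100, a component of nuclear bodies, differed by -0.03 ± 0.11.

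**Figure D3:**
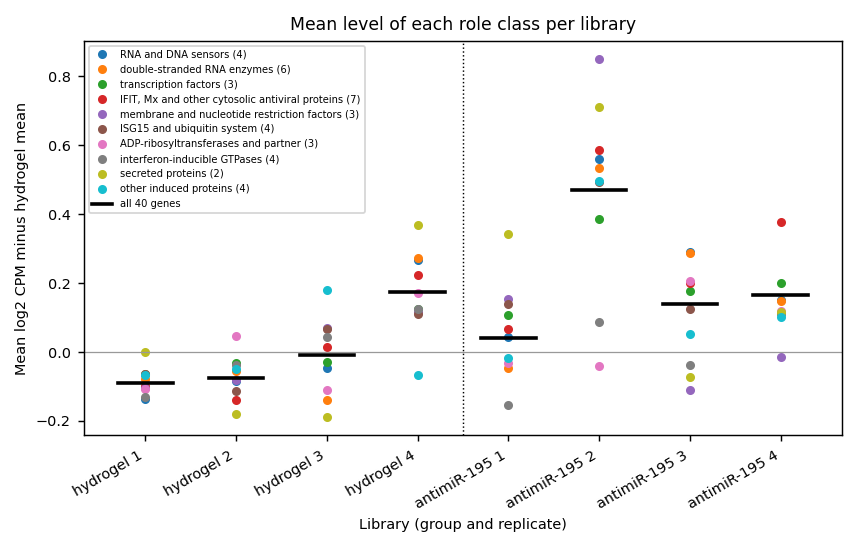
Mean log2 CPM of each role class minus its hydrogel mean (vertical axis) in each of the 8 libraries (horizontal axis), with 1 coloured point per class and a black bar for all 40 genes. The bar is highest in antimiR-195 replicate 2, at 0.47, and the GTPases there stand at 0.09 and the ADP-ribosyltransferases at -0.04.

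By class, antimiR-195 replicate 2 stood highest for the membrane and nucleotide factors, 0.85 above their hydrogel mean in log2 CPM, and lowest for the ADP-ribosyltransferases, -0.04. The IFIT and Mx class was at 0.59 there and the sensors at 0.56. Hydrogel replicate 4 was above the hydrogel mean in 9 of the 10 classes, by 0.11 to 0.37, the other induced proteins being the exception at -0.07. AntimiR-195 replicates 3 and 4 lay at 0.14 and 0.16 over the 40 genes, no higher than hydrogel replicate 4 at 0.17.

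The high values of antimiR-195 replicate 2 went with gene length. Against the mean of the other 3 antimiR-195 libraries, the 3493 shortest genes tested (up to 2181 bases, as the counts and RPKM imply) had a median difference of 0.48 in log2 CPM, the 6986 of middle length -0.02 and the 3493 longest (from 5562 bases) -0.36. The 40 genes fell into these classes as 10, 20 and 10, and their medians were 0.95, 0.19 and -0.00. Bst2 at 1.36 and Isg15 at 1.12 were short, and Dtx3l, at -0.45 the lowest, was long. Length did not order every gene, since Ifi44 (6116 bases) was at 0.75 and Oas3 (5227 bases) at 0.72. Within the antimiR-195 group 29 of the 40 genes were higher in replicate 2 than in the mean of the other 3. The median of this difference was 0.21 over the 40 genes, beside -0.01 over all genes tested.

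The members' median log2 fold changes were 0.36, 0.23 and 0.05 from short to long, and 0.05, 0.12 and 0.08 without antimiR-195 replicate 2. Over all genes tested the same medians were 0.061, -0.0016 and -0.0050. Without antimiR-195 replicate 2 they were -0.088, -0.0075 and 0.064. With each library's trend with gene length removed, an alternative added after seeing the data, the median over the 40 genes was 0.19 with 37 above 0, and 0.10 with 32 above 0 without antimiR-195 replicate 2. What this length pattern contributes to the lean of the 40 genes was not tested beyond these values.

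**Figure D4:**
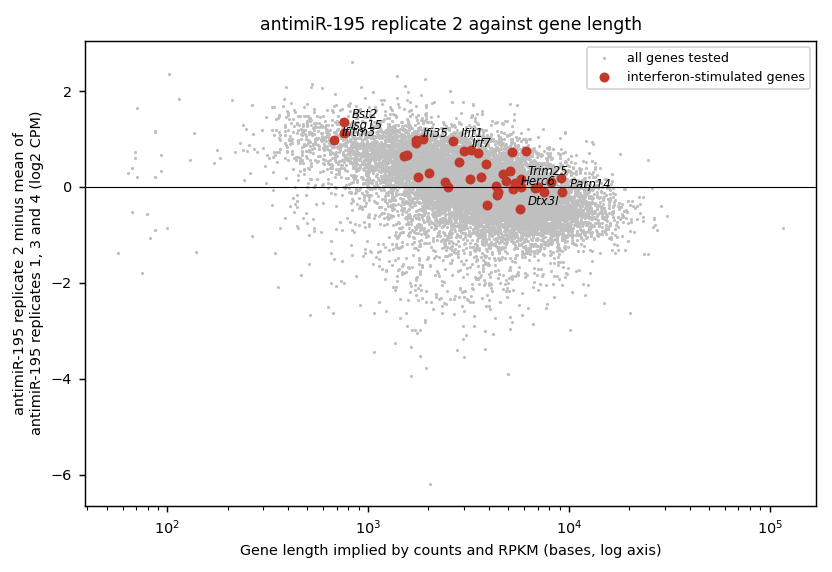
Difference in log2 CPM between antimiR-195 replicate 2 and the mean of antimiR-195 replicates 1, 3 and 4 (vertical axis) against gene length in bases (horizontal log axis), for all genes tested (grey) and the 40 interferon-stimulated genes (red, 10 of them labelled). Grey points slope down from short to long genes, with medians of 0.48, -0.02 and -0.36, and the short Bst2 and Isg15 sit highest among the red, at 1.36 and 1.12.

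Markers of some immune cell types were high in the same libraries, while those of dendritic cells were not. In bulk ventricle RNA more cells of a type cannot be told apart from more RNA per cell. The 10 macrophage markers summed to 1677 to 2236 CPM in the hydrogel libraries, highest in replicate 4, and to 1408 to 1697 in antimiR-195 replicates 1, 3 and 4 against 2438 in replicate 2. That sum was raised by Lyz2 (1326 CPM) and the complement genes C1qa, C1qb and C1qc, of 1931 bases or less. The longer Csf1r (93.0 CPM) and Mrc1 (76.0) lay within the range of the other libraries, as did Adgre1 and the short Cd68, and Mertk (6.73) was lowest there. Fcgr1, at 2589 bases, was high there too, with 34.7 CPM against at most 24.8 in any other library. In antimiR-195 replicates 1, 3 and 4 the macrophage sums were near or below the hydrogel minimum. The means of these libraries over the 40 genes lay above those of hydrogel replicates 1 to 3. Lyz2 alone gave 756 to 1326 CPM of the macrophage sums, which therefore rest largely on 1 gene. The 5 monocyte markers summed to 52.0 to 90.0 CPM and to 50.01 to 73.4 CPM, again highest in hydrogel replicate 4. B cell markers summed to at most 2.30 CPM in 7 libraries and to 4.32 in antimiR-195 replicate 2, and T and NK cell markers to 3.23 to 5.5 against 7.06. Plasmacytoid dendritic cell markers, with Klk1 at 0 counts everywhere, summed to 1.85 to 4.11 CPM and were not high in that library, at 2.24. Markers of other dendritic cells summed to 17.0 CPM in hydrogel replicate 4, the lowest of its group, and to 16.2 in antimiR-195 replicate 2. No marker of these lists passed the test, and their part in the lean of the 40 genes was not tested.

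The other genes of the pathway came from a list of 97, of which 94 were found and 79 tested. None passed, and 47 of 79 (59.49%) lay above 0 beside 52.4% of all genes, with a median of 0.02 beside 0.01. Without antimiR-195 replicate 2, 40 of the 79 lay above 0 with a median of 0.00, beside 48.75% of all genes. Of the 79, 47 are further interferon-induced genes, with 32 above 0 and a median of 0.09. Without antimiR-195 replicate 2 these were 24 and 0.00. Oasl1, a relative of the synthetases that represses IRF7 translation, had 3.65, 2.88, 3.79 and 5.61 CPM in the hydrogel libraries and 5.16, 9.79, 4.79 and 4.21 in the antimiR-195 libraries, a log2 fold change of 0.59 ± 0.30 that was 0.24 without antimiR-195 replicate 2. Oas1g differed by 0.57 ± 0.29 at 1.18 ± 0.327 CPM in the hydrogel group (SD, n = 4), and Tor3a by 0.19 ± 0.12.

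Feedback inhibitors of the pathway were split, with 3 of 6 above 0. Socs3, which blocks cytokine receptor kinases, had 14.1 to 19.6 CPM in the hydrogel libraries and 26.1, 30.8, 13.3 and 14.1 in antimiR-195 replicates 1 to 4. Replicates 1 and 2 were high and replicates 3 and 4 were not, and the log2 fold change was 0.39 ± 0.26, or 0.14 without replicate 2. Pias1, an inhibitor of activated STAT proteins, differed by 0.18 ± 0.11 and Ptpn11, the phosphatase SHP2, by -0.20 ± 0.22.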

How the data were processed

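Polyadenylated left ventricle RNA was sequenced in 8 libraries, 4 per group, from TRIzol RNA and a TruSeq stranded mRNA kit per the labels' protocols. STAR, HTSeq, DESeq and the build GRCm38 are named in the submitters' processing notes. Versions, annotation release and strand setting are not given in these sources. The authors deposited whole-number counts per Ensembl gene, per library and as 1 table (0 cells differ), and RPKM, whose implied gene length was the same in all libraries (largest relative spread 5.11e-07). HTSeq lines that name no gene stayed out of library sizes and tests. Between 42.1% and 47.8% of each file's total stood on the line for multi-mapped reads, with the largest share in antimiR-195 replicate 2.

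Groups came from the drug label, and replicate numbers only follow accession order. Counts were tested with edgeR 4.0.16 (R 4.3.3) by quasi-likelihood, with filterByExpr and TMM factors of 0.953 to 1.04, two-sided and without covariates. P-values were adjusted over all 13972 genes by Benjamini-Hochberg, threshold 0.05. CPM were computed from the deposited counts, a prior count of 2 entered mean log2 CPM, and SE is the log2 fold change divided by the root of F. The procedure was tested on simulated data. Gene symbols and overlaps came from GENCODE M21. Alternatives, 19 in all, were DESeq2 1.42.0, the likelihood ratio test, limma 3.58.1 (voom with quality weights, and trend on log2 RPKM plus 0.1 or 1), other scalings, no filter and each library left out, with a loess removal of the trend with gene length added after seeing the data.

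The 40 genes, their role classes and the pathway and marker lists were chosen with earlier results of these data known. Values in every library are given for the 3 genes of smallest p in each role class, and for other pathway genes Irf1, Ifnar1, Ifnar2, Ifnb1, Ifng and the 3 of smallest p in each class are named. 1 further pathway gene that met the rule is not reported here. Markers covered cardiomyocytes, macrophages, monocytes, neutrophils, T and NK, B, plasmacytoid and other dendritic cells (14.4 to 21.3 CPM summed), endothelial cells (604 to 836), fibroblasts (866 to 1107) and pericytes with smooth muscle (898 to 1190).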

Additional observations from a re-analysis of the deposited data

Results flagged for a closer look

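In groups of 4 libraries, a library was singled out when its gap to the nearest other exceeded Dixon's critical share of the group's range. Of 82 groups checked over the genes with values per library, their mean and the marker sums, 6 met this, where chance gives about 1 in 20. In the antimiR-195 group replicate 2 was the high library for Irf7 (ratio 0.851), Irf9 (0.859), Isg15 (0.832) and Ifi35 (0.856), and for the summed neutrophil markers (0.844). In the hydrogel group replicate 4 was the high library for Lgals3bp (0.906). The gap is not equally large in expression units, since antimiR-195 replicate 2 had 46.3 CPM of Irf7 where the others had 26.5 to 28.8, but 26.7 CPM of Irf9 where the others had 24.9 to 25.1.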

How the results depend on the processing

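Under all 19 alternatives none of the 40 genes and none of the other pathway genes passed the threshold, where 0 of all genes tested passed it. The number of the 40 genes above 0 stayed between 32 and 39, their median log2 fold change between 0.10 and 0.25, and the number highest in antimiR-195 replicate 2 between 22 and 28 where that library was kept. The number lying higher without overlap was 1 in the report. It was 2 with total gene counts without factors, on log2(RPKM + 0.1) and on log2(RPKM + 1), each beside 0.558% of all genes tested. After removing each library's trend with length it was 2, beside 0.701%, and without antimiR-195 replicate 2 as well it was 2, beside 1.69%. When 1 library was left out it was 1 to 7, where 0.908% to 1.8% of all genes tested were apart. Signs reversed in limma-voom with quality weights for Ifi35 (-0.0117), Ifnar2 (-0.0668), Ifngr2 (0.0411), Tmem173 (-0.0250), Socs3 (-0.00508), Trim25 (-0.0676), Gbp3 (0.0053) and Sp100 (0.0369), and after removing the length trend without antimiR-195 replicate 2 for Samhd1 (-0.0796), Parp14 (-0.0557), Lgals3bp (-0.00416), Ifi35 (-0.0168), Trim25 (-0.0720) and Ifnar2 (-0.0678). Leaving out 1 library gave ranges across 0 for Dtx3l (-0.0663 to 0.13), Parp14 (-0.0733 to 0.0817), Gbp2 (-0.0541 to 0.16), Gbp3 (-0.11 to 0.0395), Sp100 (-0.0843 to 0.0313), Trim25 (-0.0361 to 0.0617), Ifit2 (-0.0350 to 0.23), Ifnar1 (-0.0478 to 0.12), Ifnar2 (-0.0831 to 0.0688), Samhd1 (-0.00793 to 0.11), Bst2 (-0.0235 to 0.64), Lgals3bp (-0.0314 to 0.26) and Ifi35 (-0.0849 to 0.35). The cause was not tested. No paired analysis was possible because the labels give no replicate numbers and none that the groups share.

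With 4 libraries a group, the 95% interval of a gene among the 40 reached 0.352 in log2 to either side at the median. This reach ranged from 0.222 to 0.678. It is not adjusted over all genes and is no detection limit of the test. Ifi44, at a log2 fold change of 0.60, still had an adjusted p of 0.9999 by edgeR. Counts of ligand genes were at or near 0, which limits their uniquely mapped reads to what 3 counts allow.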
